A study of Mus musculus with 6 samples.

Results

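The genes described here encode the proteasome: its subunits, their interferon-inducible replacements, its activators and its assembly chaperones. They are the 49 genes, of 23404 in the deposited table, whose symbol begins with Psma, Psmb, Psmc, Psmd, Psme, Psmf or Psmg followed by a digit. Messenger RNA had been sequenced from C57BL/6J mouse cells that the labels call cardiomyocytes, sorted by green autofluorescence (the FITC channel) and forward scatter (FSC, which grows with particle size). FITChigh libraries (FITChigh/FSCdim, 3 replicates) were set against FITCdim libraries (FITCdim/FSChigh, 3 replicates). The series text calls them biological replicates without saying whether each came from separate animals. Both groups were of that strain, and neither had a treatment or a genetic change in its labels. The labels do not state the age or sex of the mice or the number of hearts behind a library. The title of the series gives its purpose as the isolation of pure ventricular cardiomyocytes, and the comparison asks how RNA differed between the gates.

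The proteasome degrades proteins that carry ubiquitin chains, and in heart muscle it removes worn contractile and regulatory proteins. Its 20S core is a barrel of outer alpha rings and inner beta rings, in which the beta subunits encoded by Psmb5, Psmb6 and Psmb7 cut the peptide chain. In leukocytes, and in other cells exposed to interferon gamma, Psmb8, Psmb9 and Psmb10 take the places of Psmb5, Psmb6 and Psmb7, and the resulting immunoproteasome favours peptides suited to class I antigen presentation. The 19S regulatory particle caps the barrel, with a ring of ATPases that unfolds the substrate and non-ATPases that bind and remove ubiquitin.

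Depth was 2543794, 1589825 and 2931045 recovered reads in FITChigh replicates 1, 2 and 3, against 3345994, 1705626 and 1852505 in FITCdim replicates 1, 2 and 3. Levels are given in the deposited unit, the adjusted read count, which summed per library to between 2333473 and 2443707 in FITChigh, against between 2030583 and 2112872 in FITCdim. One read was worth 0.607 to 1.54 of these units. Cardiomyocyte markers were abundant in both gates, with 12 of 12 markers summing to 428111 to 458182 in FITChigh and 278961 to 332891 in FITCdim. Myh6, the main heavy chain of adult mouse heart myosin, had 172237, 145293 and 160911 in FITChigh, against 76053, 91115 and 122952 in FITCdim (log2 fold change 0.75, SE 0.32, adjusted p = 0.14, limma). Markers of other cell types stood at lower sums in FITChigh. The 10 endothelial markers summed to 559 to 746 in FITChigh and 4148 to 4456 in FITCdim, and 11 macrophage and leukocyte markers to 123 to 166 in FITChigh and 559 to 1286 in FITCdim. In bulk samples of this kind, fewer cells of a type and less RNA per cell cannot be told apart.

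Sequence upstream of 6 of the genes is shown because the results turn on these genes: the inducible subunits, a pair of the constitutive subunits they replace, and an ATPase gene that rose. RefSeq promoter windows of 300 bases (250 before to 50 after the start, GRCm38.p6, which is mm10) matched 41 of the 49 genes, with 44 windows. Both strands were searched for the gamma-activated sequence bound by STAT dimers (GAS, TTCNNNGAA), the interferon-stimulated response element (ISRE, GAAA followed by GAAA with 2 bases between), the antioxidant response element used by Nfe2l1 and Nfe2l2 (ARE, TGACNNNGC), the CCAAT box (CCAAT) and the GC box (GGGCGG). Capitals mark GAS, ARE and GC box matches, on either strand, and no marked match overlaps another. Each sequence reads 5′ to 3′ on the strand of its gene. Psmb8 (chr17:34198087-34198116, plus strand) and Psmb9 (chr17:34187368-34187397, minus strand) are given as 30 bases because annotated exons cover their windows. The others are the bases before the start that lie outside annotated exons, for Psmb10 (chr8:105938445-105938642, minus strand), Psmb5 (chr14:54618023-54618245, minus strand), Psmb6 (chr11:70525107-70525356, plus strand) and Psmc6 (chr14:45329574-45329787, plus strand).
Psmb8: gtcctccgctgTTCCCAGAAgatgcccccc
Psmb9: tgcgcgatgatgGGGCGGggcctcagtctg
Psmb10: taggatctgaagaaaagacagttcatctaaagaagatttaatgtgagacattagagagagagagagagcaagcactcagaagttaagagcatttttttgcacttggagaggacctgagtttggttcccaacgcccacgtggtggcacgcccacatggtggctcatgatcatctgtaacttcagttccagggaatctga
Psmb5: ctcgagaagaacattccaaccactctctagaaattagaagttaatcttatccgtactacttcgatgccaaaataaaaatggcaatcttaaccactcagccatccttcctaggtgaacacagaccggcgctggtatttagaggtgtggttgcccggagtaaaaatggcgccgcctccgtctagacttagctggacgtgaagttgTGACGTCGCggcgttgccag
Psmb6: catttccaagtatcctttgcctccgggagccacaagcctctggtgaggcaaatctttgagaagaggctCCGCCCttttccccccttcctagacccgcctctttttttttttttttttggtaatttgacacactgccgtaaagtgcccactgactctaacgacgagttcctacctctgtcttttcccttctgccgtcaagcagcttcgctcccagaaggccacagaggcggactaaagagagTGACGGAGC
Psmc6: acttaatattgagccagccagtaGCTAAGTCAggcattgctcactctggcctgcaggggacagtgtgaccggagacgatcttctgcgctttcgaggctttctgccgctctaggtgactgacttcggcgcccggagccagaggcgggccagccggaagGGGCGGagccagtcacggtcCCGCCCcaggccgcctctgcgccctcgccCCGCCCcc

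The Psmb8 window held a GAS match that begins 97 bases before the start. The Psmb9 window held a GC box 55 bases before its start and a CCAAT box, not shown, 8 bases before it. ARE matches began 47 bases before the start of Psmb5, 9 bases before that of Psmb6 and 227 bases before that of Psmc6. The other genes with an ARE match were Psmd9, Psmd12 and Psme4. The genes shown outside the inducible subunits thus all held one. No ARE match was listed for the constitutive Psmb7 or for Psma4, Psmc5 and Psmd7, which rose like Psmc6, although not every gene had a window. Among the 44 windows, 3 held GAS (6.82%, against 8.3% of all 32851 windows), 5 ISRE (11.4%, against 3.44%), 6 ARE (13.6%, against 12.4%), 15 the CCAAT box (34.1%, against 37.4%) and 24 the GC box (54.5%, against 35.7%). None of these letters was found in the Psmb10 window. These matches describe letters only.

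The inducible catalytic subunits did not move together. Of these 3 genes, Psmb8 and Psmb9 were lower in FITChigh, in a table where 13.5% of all genes tested were lower, and Psmb10 did not pass the test. Psmb8 encodes the inducible subunit with chymotrypsin-like activity, and Psmb9 the one that replaces Psmb6. Psmb8 and Psmb9 are close neighbours in the histocompatibility region of chromosome 17, whereas Psmb10 lies on chromosome 8.

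Psmb8 (chromosome 17, 34197721 to 34201454 in mm10) had 5.79, 0.281 and 2.3 adjusted read counts in FITChigh replicates 1, 2 and 3, against 25.9, 10.5 and 19.4 in FITCdim replicates 1, 2 and 3. The highest FITChigh library lay below the lowest FITCdim library. The log2 fold change on log2(value + 1) was -2.60 (SE 0.55, adjusted p = 0.0036, limma-trend over 12907 genes). Behind these values stood 9 reads in FITChigh (6, 0 and 3 in replicates 1, 2 and 3) and 66 in FITCdim. The value of 0.281 in FITChigh replicate 2 thus rests on 0 reads. The summed reads give 1.27 CPM (exact 95% interval 0.583 to 2.42) in FITChigh and 9.56 CPM (7.39 to 12.2) in FITCdim. The ratio of these rates was 0.133 (0.0584 to 0.269), a 7.5-fold lower rate in FITChigh, and covers counting error only.

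Psmb9 (chromosome 17, 34181987 to 34187764) was at the edge of detection in FITChigh, with 0.949, 2.69 and 0 adjusted read counts in replicates 1, 2 and 3, against 8.02, 9.66 and 3.62 in FITCdim. The groups did not overlap. Its log2 fold change was -1.98 (SE 0.57, adjusted p = 0.024, limma). The difference rests on few reads, 3 in FITChigh and 24 in FITCdim, with a rate ratio of 0.122 (exact 95% interval 0.0235 to 0.402). The call was lost without FITChigh replicate 1 (adjusted p = 0.062), FITChigh replicate 3 (0.085), FITCdim replicate 1 (0.12) or FITCdim replicate 2 (0.13), and with quantile normalization (0.13), and over 13 alternatives the adjusted p ran from 0.0087 to 0.13.

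Psmb10 (chromosome 8, 105935735 to 105938444), which replaces Psmb7, had 69.7, 66.2 and 65.2 adjusted read counts in FITChigh replicates 1, 2 and 3, against 65.5, 78.9 and 75.2 in FITCdim. The groups overlapped. The log2 fold change was -0.12 (SE 0.18, adjusted p = 0.72, limma), and -0.32 (adjusted p = 0.28) when every library was scaled to one common total. Its reads numbered 198 in FITChigh and 239 in FITCdim, a rate ratio of 0.81 (exact 95% interval 0.667 to 0.982, counting error only). This ratio divides by the recovered reads of each group, whereas the log2 fold change of -0.12 uses the deposited scaling. Psmb10 was thus the most abundant inducible gene in both gates, at 51.1 ± 1.8 adjusted read counts per kb of transcript in FITChigh (SD, n = 3), against 55.8 ± 5.3 in FITCdim (SD, n = 3). On the same scale Psmb8 stood at 1.71 in FITChigh and 11.4 in FITCdim.

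The constitutive partners had higher means in FITChigh, but none passed the test. Psmb5, the constitutive chymotrypsin-like subunit, had 51.5, 67.8 and 49.9 adjusted read counts in FITChigh, against 52.8, 38.6 and 32.3 in FITCdim (log2 fold change 0.46, SE 0.24, adjusted p = 0.22, limma). FITCdim replicate 1 lay within the FITChigh range. Psmb6, the caspase-like subunit, had 339, 334 and 258 in FITChigh, against 263, 263 and 186 in FITCdim (0.39, SE 0.17, adjusted p = 0.13). Psmb7, the trypsin-like subunit, had 419, 432 and 294 in FITChigh, against 301, 323 and 263 in FITCdim (0.35, SE 0.16, adjusted p = 0.16). For both, FITChigh replicate 3 fell within the FITCdim range. By an unadjusted p under 0.05, 2 of these 3 genes were higher in limma-trend, a threshold for which no share of all genes was taken. After adjustment, limma-voom on recovered reads called 0 of 3. With libraries whose titles share a tag fitted as a replicate block, Psmb6 and Psmb7 were called higher, beside 8.24% of all genes. Psmb7 was called higher without FITChigh replicate 3 (limma adjusted p = 0.029), beside 341 of 12781 genes tested.

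**Figure D1:**
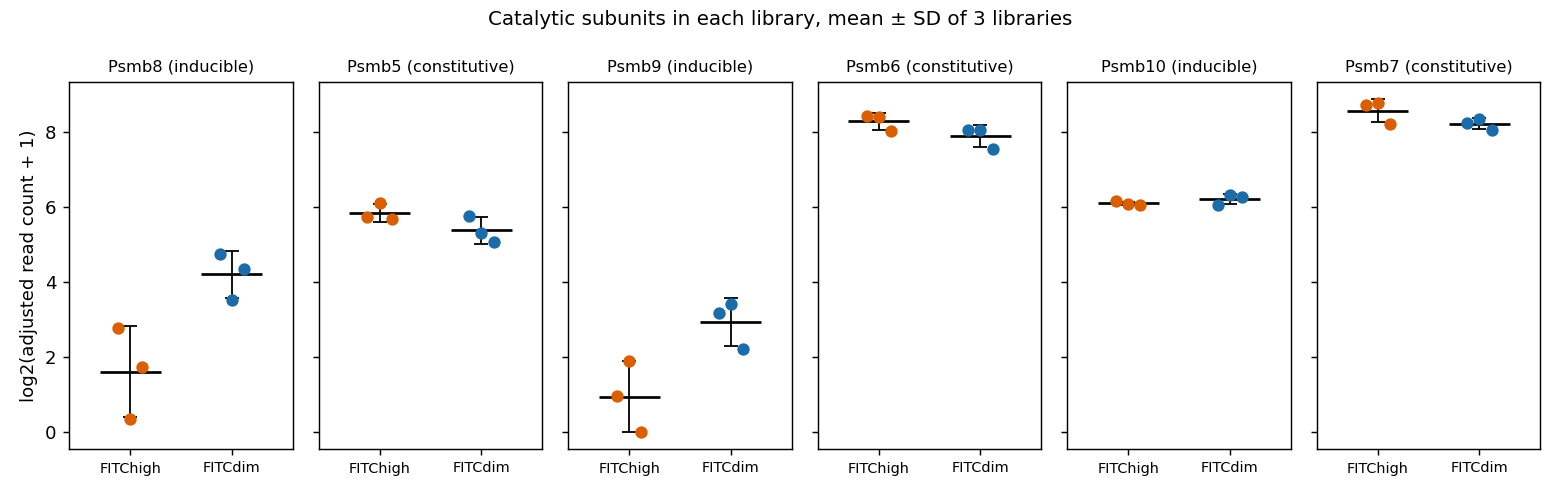
Each point is 1 library, as log2(adjusted read count + 1), with FITChigh left of FITCdim in every panel, and bars give the mean ± SD of 3 libraries. Psmb8 and Psmb9 lie lower in FITChigh with no overlap, Psmb10 overlaps, and the constitutive partners Psmb5, Psmb6 and Psmb7 lie slightly higher in FITChigh with overlap.

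Each inducible gene was next set against its constitutive partner within the same library, a ratio that no rescaling of a whole library changes apart from the added pseudocount. The log2 ratio of Psmb8 over Psmb5 was -2.95, -5.75 and -3.94 in FITChigh replicates 1, 2 and 3, against -1.0, -1.78 and -0.71 in FITCdim. It differed by -3.05 between the gates, an 8.3-fold lower ratio in FITChigh, without overlap. FITChigh replicate 2 held 0 Psmb8 reads, and without that library the difference was -2.29. For Psmb9 over Psmb6 the log2 ratio was -7.45, -6.50 and -8.02 in FITChigh, against -4.87, -4.63 and -5.34 in FITCdim, a difference of -2.37 (5.18-fold), also without overlap. For Psmb10 over Psmb7 it was -2.57, -2.69 and -2.15 in FITChigh, against -2.18, -2.02 and -1.79 in FITCdim, a difference of -0.47 (1.39-fold), with overlap. Exact two-sided permutation tests over 20 assignments of libraries gave p = 0.1, 0.1 and 0.2 for these pairs, where 0.1 is the smallest p that 3 against 3 libraries allow. Adjusted over 5 ratios they were 0.125, 0.125 and 0.2. These 5 include the ratios of the next paragraph, formed after the values had been seen. Including them made the adjusted p of Psmb8 over Psmb5 and of Psmb9 over Psmb6 smaller than over the planned ratios alone.

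The remaining ratios were formed after the values had been seen, to set the neighbours on chromosome 17 against Psmb10. Psmb8 over Psmb10 differed by -2.47 on the log2 scale and Psmb9 over Psmb10 by -1.86, each without overlap (exact permutation p = 0.1 for each, adjusted 0.125). Corrected for transcript length, Psmb8 made up 5.84%, 0.228% and 2.49% of the summed Psmb8 and Psmb5 level in FITChigh, against 21.3%, 13.1% and 24.9% in FITCdim. The 0.228% in FITChigh replicate 2 rests on 0 Psmb8 reads. Psmb9 made up 0.165%, 0.473% and 0% of the Psmb9 and Psmb6 level in FITChigh, against 1.77%, 2.12% and 1.13% in FITCdim. Psmb10 made up 12.8%, 11.9% and 16.4% of the Psmb10 and Psmb7 level in FITChigh, against 16.1%, 17.8% and 20.2% in FITCdim. At the messenger RNA level, then, the constitutive partner was the more abundant gene of each pair in every library.

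Genes of other cell types moved in the same direction as Psmb8 and Psmb9, in a table where 13.5% of all genes tested were lower. Of the macrophage and leukocyte markers, 10 of 10 tested (12 listed) were lower in FITChigh, with a median log2 fold change of -2.47, and Fcgr1 was at 0 in every FITChigh library. Ptprc, the pan-leukocyte marker CD45, had 2.88, 1.66 and 1.53 adjusted read counts in FITChigh, against 20.2, 16.0 and 8.32 in FITCdim (log2 fold change -2.34, SE 0.45, adjusted p = 0.0015, limma). Of the endothelial markers, 10 of 10 were lower (median -2.71). Pecam1, which encodes the endothelial adhesion molecule CD31, had 80.1, 114 and 89.0 in FITChigh, against 806, 550 and 515 in FITCdim (-2.70, SE 0.18, adjusted p = 7.4e-08). Lower in FITChigh too were 7 of 7 fibroblast markers tested (8 listed, median -2.66) and 5 of 6 mural markers (median -2.61). Markers of atrial muscle had the lowest median of the marker lists, with 5 of 5 lower (median -3.22) and sums of 201 to 443 in FITChigh, against 1138 to 2453 in FITCdim. Among them were the atrial light chain genes Myl7 (-3.23, adjusted p = 1.6e-06) and Myl4 (-3.22, adjusted p = 3.3e-06). The 7 lymphocyte markers were all too low to test, with sums of 0 to 1.41 in FITChigh and 0.149 to 4.46 in FITCdim, and so were the erythroid markers. The part of these cells in the Psmb8 and Psmb9 differences was not tested.

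Genes that work with the immunoproteasome were lower or did not pass the test. Of 13 genes of class I antigen processing, 6 were lower in FITChigh while 7 missed the threshold (median log2 fold change -0.50). B2m, the light chain of class I molecules, had 319, 204 and 268 adjusted read counts in FITChigh, against 1002, 901 and 928 in FITCdim (log2 fold change -1.86, SE 0.16, adjusted p = 5.8e-07, limma). Those FITChigh libraries all lay far below the FITCdim ones. Tap1, a peptide transporter subunit whose gene lies head to head with Psmb9, had 5.69, 7.68 and 8.88 in FITChigh, against 30.5, 21.1 and 10.7 in FITCdim (-1.28, SE 0.40, adjusted p = 0.039). The heavy-chain gene H2-D1 (-2.48, adjusted p = 3.3e-06) and Nlrc5, a transactivator of class I genes (-1.94, adjusted p = 0.047), were also lower, although how reads shared among class I genes were counted is unknown. Calr, the chaperone with the highest adjusted read count of this list, did not pass the test (0.12, adjusted p = 0.6). The Tap1 call was lost without FITChigh replicate 1 (adjusted p = 0.13), FITChigh replicate 2 (0.063), FITCdim replicate 1 (0.2) or FITCdim replicate 2 (0.09), with quantile normalization (0.18) and with no filter (0.051). The Nlrc5 call was lost without FITChigh replicate 2 (0.12), FITChigh replicate 3 (0.15), FITCdim replicate 1 (0.16) or FITCdim replicate 3 (0.13), with quantile normalization (0.15) and with a pseudocount of 0.5 (0.056).

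Of 22 tested genes of interferon signalling, 11 were lower in FITChigh while 11 missed the threshold (median log2 fold change -0.96). Irf1, a transcription factor that drives Psmb8, Psmb9 and Psmb10 under interferon, had 4.72, 8.95 and 8.87 adjusted read counts in FITChigh, against 60.0, 63.0 and 57.1 in FITCdim (log2 fold change -2.89, SE 0.30, adjusted p = 5.4e-06, limma). The guanylate-binding protein genes Gbp2 (-2.64, adjusted p = 5.9e-06) and Gbp3 (-2.34, adjusted p = 0.0013) fell as well. Ifngr2, an interferon gamma receptor chain and the gene with the highest adjusted read count in this list, did not pass the test (-0.02, adjusted p = 0.95). In these 2 lists, as in the proteasome genes, the counts stand beside a table in which 13.5% of tested genes were lower and 2.51% higher.

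Over the whole set, 48 of the 49 genes passed the filter on low values. Of these, 4 were higher in FITChigh (Psma4, Psmc5, Psmc6 and Psmd7; 8.33%, against 2.51% of all 12907 genes tested), 2 were lower (4.17%, against 13.5%) and 42 did not pass, so that 6 were called in either direction (12.5%, against 16.1%). Groups did not overlap for 16 genes on the higher side (33.3%, against 11.4% of all genes) and 2 on the lower side (4.17%, against 20.2%), 18 in all (37.5%, against 31.6%). Log2 fold changes ran from -2.60 to 0.56 with a median of 0.30, beside -0.01 for all genes tested. They were positive for 44 of 48 genes (91.7%, against 49.4% of all genes), but for 33 of 48 with one common total, where the median was 0.09 beside -0.20 for all genes. The proteasome median thus stood 0.30 above that of all genes with the deposited scaling, 0.29 above it with one common total and 0.14 above it with quantile normalization. Leaving out 1 library at a time gave 0.18 to 0.38, with the lowest value without FITCdim replicate 3.

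**Figure D2:**
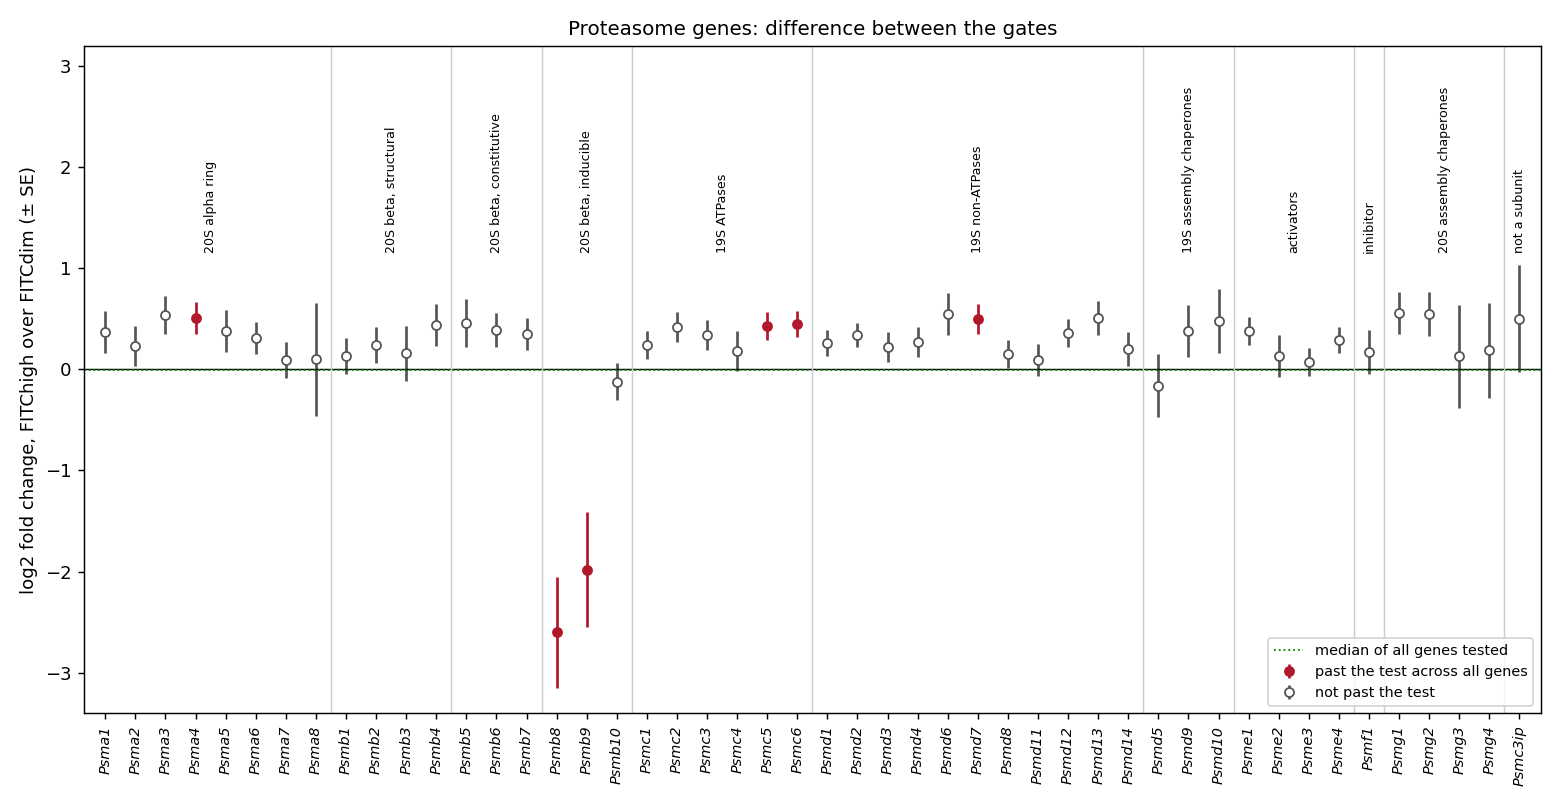
Log2 fold change of each of the 48 tested genes, FITChigh over FITCdim, with its standard error, ordered by role along the horizontal axis; filled red points passed the test across all genes and the dotted line is the median of all genes tested. Most genes sit between 0 and 0.56, Psmb8 and Psmb9 lie at -2.60 and -1.98, and Psmb10 and Psmd5 lie slightly below 0.

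The genes that rose were 1 alpha subunit and 3 parts of the 19S particle. Psma4, an alpha-ring subunit (chromosome 9, 54950790 to 54958030), had 294, 400 and 268 adjusted read counts in FITChigh, against 215, 235 and 217 in FITCdim (log2 fold change 0.51, SE 0.16, adjusted p = 0.037, limma). FITChigh replicate 2 was the highest library. Psmc6, an ATPase of the 19S base (chromosome 14, 45329788 to 45349705), had 333, 317 and 325 in FITChigh, against 236, 251 and 226 in FITCdim (0.45, SE 0.13, adjusted p = 0.025). Within each group its libraries lay close together, at SDs of 8.13 in FITChigh and 12.6 in FITCdim. Psmc5, another ATPase (chromosome 11, 106256154 to 106263120), had 262, 261 and 229 in FITChigh, against 198, 190 and 167 in FITCdim (0.43, SE 0.14, adjusted p = 0.047). Psmd7, the partner of the deubiquitinase Psmd14 in the 19S lid (chromosome 8, 107580381 to 107588464), had 350, 456 and 335 in FITChigh, against 234, 279 and 289 in FITCdim (0.50, SE 0.15, adjusted p = 0.034).

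These rises of 1.35-fold to 1.42-fold depended on the scaling and on single libraries, and that of Psmc5 also on the filter and the fit. With one common total limma called 0 proteasome genes higher (0 also at an unadjusted p under 0.05), while all 4 kept positive log2 fold changes of 0.23 to 0.30. Quantile normalization called Psmg1 and Psmg2 in their place, beside 467 of 12907 genes tested. Limma-voom on recovered reads called Psma4, Psmc6 and Psmd7, beside 360 of 12907. The replicate block of title tags called 18 proteasome genes higher, these 4 among them, beside 8.24% of all genes. Psmc5 was called in 4 of 14 alternatives, and lost its call with the stricter filter (adjusted p = 0.054), robust limma (0.054) and limma-voom (0.058), and without FITCdim replicate 2 (0.089). Without FITChigh replicate 1 no proteasome gene was called higher (12 at an unadjusted p under 0.05), beside 67 of 12812 genes tested. Without FITChigh replicate 2 Psmc6 alone was called, beside 185 of 12719. Without FITCdim replicate 1 it was Psmd6 alone (148 of 12372), and without FITCdim replicate 3 Psmd7 alone (285 of 12375). Without FITChigh replicate 3 there were 7 (Psma3, Psma4, Psmb7, Psmc2, Psmc3, Psmc5 and Psmd7), beside 341 of 12781.

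The core and the regulatory particle had medians that lay close together with the deposited scaling. The 15 genes of the 20S core other than the inducible subunits and the thymic subunit Psmb11 had a median log2 fold change of 0.35 (range 0.09 to 0.54), and 15 of 15 were positive. The 17 genes of the 19S particle other than its chaperones had a median of 0.34 (0.09 to 0.55), with 17 of 17 positive. With one common total these medians were 0.15 and 0.13, with 11 of 15 and 14 of 17 genes positive. With quantile normalization they were 0.32 and 0.22, which is 0.19 and 0.09 above the median of all genes, in place of 0.36 and 0.34 with the deposited scaling. Called higher were 1 of 15 core genes and 3 of 17 regulatory genes, beside 2.51% of all genes tested. The groups did not overlap, on the higher side, for 3 of 15 core genes and 9 of 17 regulatory genes, beside 11.4% of all genes, so that the core counts rest on few genes. The difference between the particles was not tested.

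Core genes varied more from library to library than regulatory genes did. The median log2 deviation of the core genes from their mean over 6 libraries was 0.18, 0.35 and -0.09 in FITChigh replicates 1, 2 and 3, against 0.03, -0.02 and -0.53 in FITCdim. For the regulatory genes it was 0.21, 0.22 and 0.08 in FITChigh, against -0.13, -0.05 and -0.29 in FITCdim. Core genes were thus highest in FITChigh replicate 2 and lowest in FITCdim replicate 3, and their ranges in the gates overlapped, while those of the regulatory genes did not. Without FITCdim replicate 3 the core median was 0.17, against 0.30 for the regulatory particle. Core transcripts are also shorter, with a median length of 1165 bases against 1636 for the regulatory genes. All 1783 tested genes with a transcript under 1500 bases had median deviations of 0.09, 0.27 and -0.09 in FITChigh, against -0.06, 0.10 and -0.19 in FITCdim. FITChigh replicate 2 was thus the highest and FITCdim replicate 3 the lowest there too, and the part of transcript length in the core pattern was not tested.

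**Figure D3:**
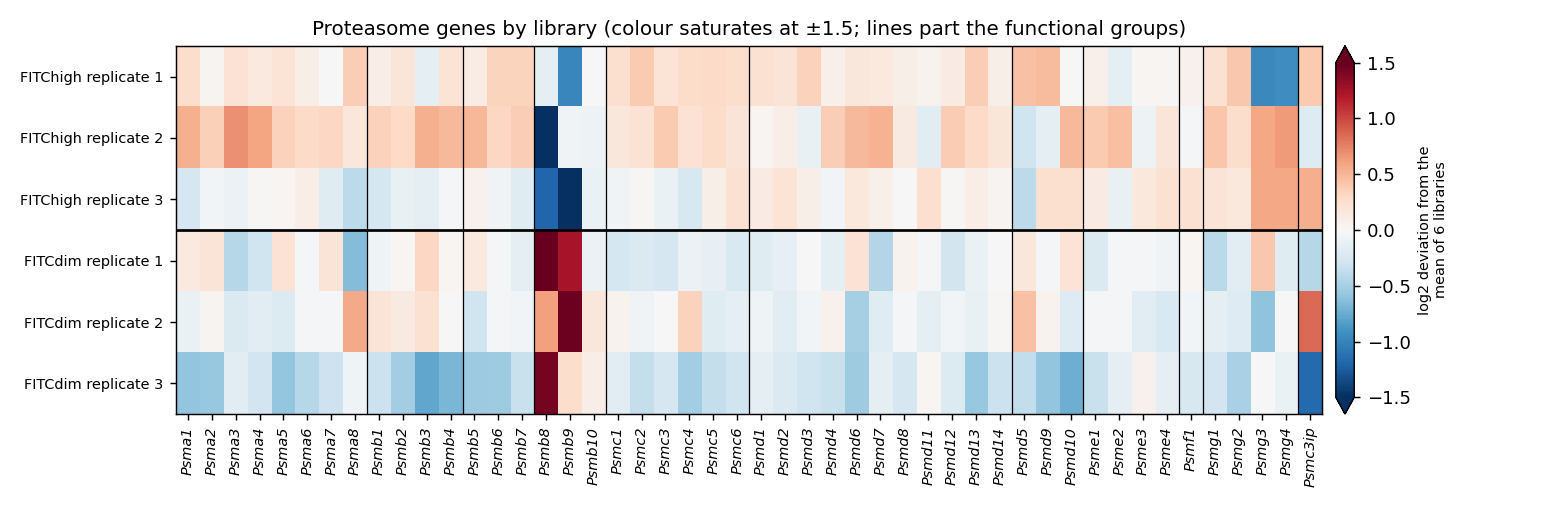
Colour gives each gene's log2 deviation from its mean over the 6 libraries, with genes in columns by role, libraries in rows and FITChigh above FITCdim. FITChigh replicate 2 is warm and FITCdim replicate 3 cool across most core genes, whereas Psmb8 and Psmb9 are mostly cool in FITChigh and warm in FITCdim.

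Among the alpha-ring genes, 1 of 8 was higher (Psma4), beside 2.51% of all genes tested, and the median log2 fold change was 0.34. Psma3 had 167, 232 and 135 adjusted read counts in FITChigh, against 107, 124 and 128 in FITCdim (0.54, SE 0.19, adjusted p = 0.062, limma). Its groups did not overlap, and neither did those of Psma6, at 194, 223 and 196 in FITChigh, against 181, 180 and 136 in FITCdim (0.31, adjusted p = 0.22). Psma7 stood at 0.09 (adjusted p = 0.79), and at -0.11 with one common total. Psma8, the alpha subunit of testis proteasomes, was at the limit of detection with 4 reads in each gate. The structural beta genes Psmb1, Psmb2, Psmb3 and Psmb4 had log2 fold changes of 0.13 to 0.44 with overlap for each, and 0 of 4 passed in limma-trend (0 at an unadjusted p under 0.05) or in limma-voom. With the replicate block of title tags Psmb4 was called higher (limma adjusted p = 0.035), beside 8.24% of all genes. Psmb1 and Psmb3 turned negative with one common total, at -0.08 and -0.04. Psmb11, the catalytic subunit of thymic epithelium, had 0 reads in every library, which allows a level of up to 0.425 CPM in FITChigh and 0.435 CPM in FITCdim (3 reads per group).

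Of the 6 ATPase genes of the 19S base, 2 were higher, beside 2.51% of all genes tested, and the median log2 fold change was 0.38. Psmc2 had 328, 292 and 254 adjusted read counts in FITChigh, against 215, 242 and 195 in FITCdim (0.42, SE 0.15, adjusted p = 0.067, limma), without overlap. Psmc3, the ATPase gene with the highest level, had 611, 691 and 494 in FITChigh, against 442, 528 and 444 in FITCdim (0.34, adjusted p = 0.14). FITChigh replicate 3 lay within the FITCdim range. Psmc1 and Psmc4 stood at 0.24 and 0.18 with overlap, and Psmc4 at -0.02 with one common total.

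Of the 11 non-ATPase genes of the 19S particle, 1 was higher (Psmd7), beside 2.51% of all genes tested, and the median log2 fold change was 0.27. Psmd13, a lid subunit, had 179, 169 and 148 adjusted read counts in FITChigh, against 129, 128 and 92.9 in FITCdim (0.51, SE 0.17, adjusted p = 0.051, limma), just outside the threshold. Psmd2, a scaffold of the base to which ubiquitin shuttles dock, had 582, 545 and 586 in FITChigh, against 464, 452 and 436 in FITCdim (0.34, SE 0.12, adjusted p = 0.073). Its groups were far apart for their spread, and those of its fellow scaffold Psmd1 (0.26, adjusted p = 0.21) and of Psmd12 (0.36, adjusted p = 0.11) did not overlap either. Psmd6 (0.55, adjusted p = 0.091) had FITCdim replicate 1 within its FITChigh range. The deubiquitinase Psmd14 (0.20, adjusted p = 0.49) did not overlap between the gates. The ubiquitin receptor Psmd4 (0.27, adjusted p = 0.28) overlapped, as did Psmd3, Psmd8 and Psmd11 (0.09 to 0.22), and Psmd8 and Psmd11 were negative with one common total, at -0.05 and -0.12.

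The activators had log2 fold changes of 0.07 to 0.38, and 0 of 4 passed in limma-trend (2 at an unadjusted p under 0.05) or in limma-voom. With the replicate block of title tags, Psme1 and Psme4 were called higher, beside 8.24% of all genes. Psme1 and Psme2 encode the alpha and beta chains of PA28, the interferon-inducible cap that works with the immunoproteasome. Psme1 had 291, 363 and 301 adjusted read counts in FITChigh, against 238, 273 and 219 in FITCdim (0.38, SE 0.14, adjusted p = 0.088, limma). The groups did not overlap, and FITChigh was on the higher side, opposite to Psmb8 and Psmb9. Psme2 had 51.5, 77.8 and 52.2 in FITChigh, against 55.3, 55.6 and 51.4 in FITCdim (0.13, SE 0.21, adjusted p = 0.74), with FITChigh replicate 2 alone above the rest, and stood at -0.07 with one common total. Psme3, the nuclear PA28 gamma chain, stood at 0.07 (adjusted p = 0.78). Psme4, which encodes the nuclear activator PA200, had 1027, 1153 and 1194 in FITChigh, against 977, 870 and 918 in FITCdim (0.29, SE 0.13, adjusted p = 0.15), without overlap. Psmf1, the regulator PI31, stood at 0.17 (adjusted p = 0.68).

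The 7 assembly chaperones had a median log2 fold change of 0.38, and 0 of 7 passed in limma-trend (2 at an unadjusted p under 0.05) or in limma-voom. Psmg1 and Psmg2 form a dimer that builds the alpha ring. Psmg1 had 54.4, 62.3 and 53.2 adjusted read counts in FITChigh, against 34.8, 41.8 and 37.7 in FITCdim (0.56, SE 0.21, adjusted p = 0.085, limma). Psmg2 had 56.4, 50.9 and 47.5 in FITChigh, against 37.9, 37.0 and 29.9 in FITCdim (0.55, SE 0.22, adjusted p = 0.10). Neither gene overlapped between the gates. With quantile normalization both were called higher, beside 467 of 12907 genes tested. With the replicate block of title tags Psmg1 alone of the chaperones was, beside 8.24% of all genes. Their partners in ring assembly, Psmg3 and Psmg4, rested on 16 and 22 reads in FITChigh and 16 and 19 in FITCdim and overlapped. Psmd5, a chaperone of the 19S base, was the gene outside the inducible subunits with a negative value, at -0.16 (SE 0.31, adjusted p = 0.79), and 0.11 with quantile normalization. The base chaperones Psmd9 and Psmd10 stood at 0.38 and 0.48 (adjusted p = 0.38 and 0.36). Psmc3ip, which the symbol rule also takes, encodes a meiotic recombination factor and no proteasome subunit, and stood at 0.50 (adjusted p = 0.6).

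Levels per kb of transcript spread widely within this machine of fixed stoichiometry. Over the 15 core genes they ran from 0.825 to 389 adjusted read counts per kb in FITChigh and from 0.781 to 298 in FITCdim. The low end was the testis gene Psma8, which was at the limit of detection. The next lowest core gene was Psma2 at 51.9 in FITChigh and Psma3 at 41.9 in FITCdim. Psmb6 was the highest of all proteasome genes, at 389 in FITChigh and 298 in FITCdim. Psmc3 followed at 366 in FITChigh and 288 in FITCdim. Psmb7 stood at 329 in FITChigh and 255 in FITCdim, whereas the third constitutive catalytic gene, Psmb5, stood at 62.7 in FITChigh and 45.9 in FITCdim. Psmb10 ranked 37 of 49 by this level in FITChigh and 30 of 49 in FITCdim. Median levels were 164 in FITChigh and 131 in FITCdim for the 19S particle, and 15.9 in FITChigh and 12.2 in FITCdim for the chaperones. These values assume the length of one principal transcript per gene.

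**Figure D4:**
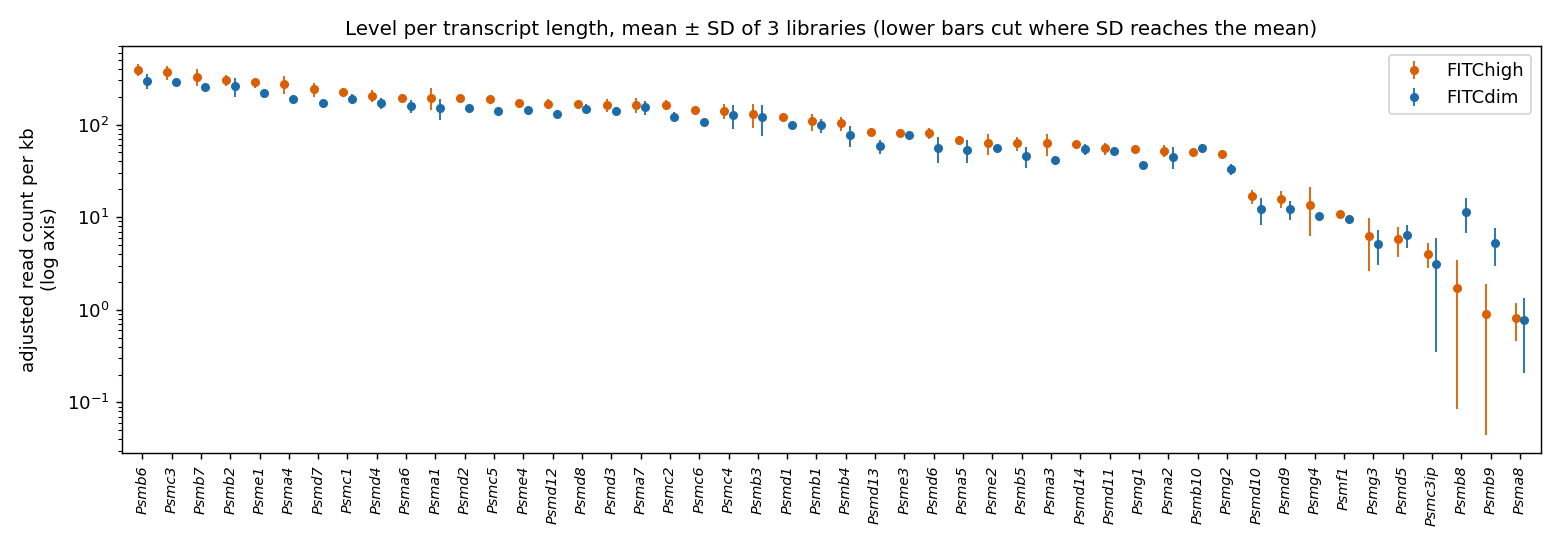
Adjusted read count per kb of transcript on a log axis, mean ± SD of 3 libraries, for the 48 genes with reads, ordered by the FITChigh mean; FITChigh is drawn left of FITCdim for each gene. Psmb6 is at the top with 389 in FITChigh and 298 in FITCdim, and Psmb8, Psmb9 and Psma8 are at the lower end.

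Partners of the proteasome outside the symbol rule included 19S components. Of 22 ubiquitin, shuttle and proteasome-binding genes in the table, 3 were higher in FITChigh, beside 2.51% of all genes tested. The other 19 did not pass, and the median log2 fold change of the 22 was 0.14. Adrm1, a ubiquitin receptor of the 19S particle, had 198, 184 and 137 adjusted read counts in FITChigh, against 98.8, 130 and 101 in FITCdim (0.64, SE 0.18, adjusted p = 0.021, limma). Shfm1, a small subunit of the 19S lid also named Sem1, had 486, 611 and 324 in FITChigh, against 247, 337 and 246 in FITCdim (0.74, SE 0.20, adjusted p = 0.016), with FITChigh replicate 3 inside the FITCdim range. AI314180, now named Ecpas, encodes a protein that tethers core and regulatory particle, and had 735, 754 and 680 in FITChigh, against 511, 563 and 592 in FITCdim (0.38, SE 0.13, adjusted p = 0.049). Vcp, the unfolding ATPase that hands substrates to the proteasome, had the highest adjusted read count of this list and did not pass the test (0.30, adjusted p = 0.14). With one common total the calls of Adrm1 (adjusted p = 0.1), Shfm1 (0.061) and AI314180 (0.4) were lost, as they were without FITChigh replicate 1 (0.12, 0.072 and 0.16) and without FITChigh replicate 2 (0.063, 0.075 and 0.12). Adrm1 also lost its call without FITCdim replicate 1 (0.083) or 3 (0.052), and AI314180 was called in 2 of 14 alternatives alone. It was lost with any single library left out (0.051 to 0.21), with quantile normalization (0.22), robust limma (0.065), limma-voom (0.057), no filter (0.054) and the stricter filter (0.056).

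Regulators of proteasome genes mostly did not pass the test. Nfe2l1, the transcription factor that raises subunit genes together when proteasome activity is short, had 1488, 1510 and 1683 adjusted read counts in FITChigh, against 1395, 1369 and 1708 in FITCdim (log2 fold change 0.07, SE 0.14, adjusted p = 0.78, limma). The groups overlapped. Of 11 regulators, 10 did not pass and, beside 13.5% of all genes tested, 1 was lower. That was Maff, a small Maf protein that can pair with such factors, with 14.4, 16.1 and 6.74 in FITChigh, against 27.5, 34.4 and 29.7 in FITCdim (-1.31, SE 0.34, adjusted p = 0.014). Its call was lost with quantile normalization (-0.95, adjusted p = 0.068).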

How the data were processed

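Per the labels' protocols, strand-specific mRNA libraries were sequenced as paired reads of 75 bp. The submitters' processing notes name STAR 2.5, edgeR and mm10. Which program and annotation the authors counted with, and whether strand was used, is not stated there, so reads of overlapping or near-identical genes could not be checked. The deposited signal value is a read count that the authors adjusted to a common library size. Of 23410 gene lines, 6 were garbled and left out.

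Undoing the negative binomial quantile adjustment (dispersion 0.0203) gave back the reads, which regained 100% of values within 0.01. They served for depth, floors (3 reads), exact 95% intervals (counting error only) and 1 alternative fit. Rates in CPM and rate ratios divide by the recovered reads of each group and do not use the deposited scaling.

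Genes with at least 1 in at least 3 of 6 libraries entered limma-trend (limma 3.58.1, R 4.3.3) on the log2(value + 1) scale, which understates the change of low genes. Tests were two-sided, with Benjamini-Hochberg adjustment over 12907 genes and a threshold of 0.05. The fit was also run on simulated data, with changes larger than the proteasome rises and only in genes of a higher level than Psmb9. That run therefore does not cover changes as small as those rises or genes as low as Psmb9. The labels do not say whether replicates, numbered in accession order, came from separate animals, so p-values reflect library-to-library spread, which may be technical. Any 2 libraries of a group differed by more than counting noise (chi-square over its degrees of freedom, 3.63 to 6.09).

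Every gene of the symbol rule may be named. From each other list the most abundant member and as many as 3 called members with the largest change may be, and Pecam1, Ptprc, Myh6, Tap1, Nfe2l1 and B2m always. The members and lists were chosen with earlier results of these data known. Positions and principal-transcript lengths are from GENCODE vM21. Alternatives changed the pseudocount, filter, scaling, fit, block and libraries included. The main fit used no block. Counts at an unadjusted p under 0.05 have no share of all genes beside them and are descriptive only.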

Additional observations from a re-analysis of the deposited data

How the results depend on the processing

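Psmb8 was lower in FITChigh under all 14 alternatives fitted, with log2 fold changes of -3.17 to -1.87. With one common total, genes higher in FITChigh numbered 41 in place of 324 among all genes (median of all genes -0.20 in place of -0.01) and 0 in place of 4 among proteasome genes, and the 19S median was 0.13 in place of 0.34. Quantile normalization called 2 proteasome genes higher and 1 lower, beside 467 higher and 1213 lower of 12907 genes tested. It moved the Psmb9 over Psmb6 difference from -2.37 to -1.54. The stricter filter removed Psmb9, leaving 1 lower, beside 1253 of 10032 genes tested. Psmb8 passed that filter through its FITCdim values alone (25.9, 10.5 and 19.4). Neither Psmb8 nor Psmb9 would have passed the main filter on FITChigh values alone (5.79, 0.281 and 2.3, and 0.949, 2.69 and 0). Leaving out 1 library at a time gave 67 to 341 higher and 1152 to 1672 lower genes in the whole table, 0 to 7 higher and 1 to 2 lower proteasome genes, a core median of 0.17 to 0.46 and a 19S median of 0.29 to 0.40. The same left the ratio differences at -3.68 to -2.29 (Psmb8 over Psmb5), -2.78 to -2.03 (Psmb9 over Psmb6) and -0.63 to -0.37 (Psmb10 over Psmb7). The cause of these shifts was not tested.

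The values of 13 single genes, none past the test, changed sign. With one common total they were Psma7 -0.11, Psma8 -0.01, Psmb1 -0.08, Psmb3 -0.04, Psmc4 -0.02, Psmd11 -0.12, Psmd8 -0.05, Psme2 -0.07, Psme3 -0.13, Psmf1 -0.03 and Psmg3 -0.04, and with quantile normalization Psmd5 0.11. Leaving out 1 library at a time gave log2 fold changes of -0.05 to 0.21 for Psma7, -0.20 to 0.41 for Psma8, -0.02 to 0.29 for Psmb1, -0.19 to 0.35 for Psmb3, -0.04 to 0.40 for Psmc4, -0.02 to 0.19 for Psmd11, -0.43 to 0.02 for Psmd5, -0.06 to 0.23 for Psme2, -0.14 to 0.64 for Psmg3 and -0.08 to 0.70 for Psmg4.

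Libraries whose titles share a tag correlated in their deviations from the group means at r = 0.071, 0.125 and 0.175. Libraries of different tags stood at r = -0.122 to -0.008. The same-tag values were low, so the tags were not taken as pairs, although each FITChigh library correlated best with the FITCdim library of its own tag. The labels do not say whether the tags mark pairs. With the tag as a replicate block, 1064 of all genes (8.24%) and 18 proteasome genes were higher, namely Psma1, Psma3, Psma4, Psmb4, Psmb6, Psmb7, Psmc2, Psmc3, Psmc5, Psmc6, Psmd2, Psmd6, Psmd7, Psmd12, Psmd13, Psme1, Psme4 and Psmg1, while Psmb8 and Psmb9 were lower. Psmb9, Psma8 and, in FITChigh, Psmb8 rest on so few reads that depth limits their values.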
